A study of Mus musculus with 6 samples.

Results

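The genes that encode the initiation and elongation factors of cytosolic translation were compared between hematopoietic cells of ING4-/- and WT mice. The group was defined by symbol, as the protein-coding genes whose names begin with Eif or Eef and a number, without the eIF2 kinases, the eIF4E-binding proteins and the Y-linked Eif2s3y. The annotation held 60 such genes, and 59 of them were among the 49315 genes of the deposited count tables. RNA was sequenced in bulk from LT-HSCs, ST-HSCs and MPPs, the long-term and short-term hematopoietic stem cells and the multipotent progenitors of the bone marrow. Each population was sorted from lineage-depleted marrow pooled from several WT C57BL/6 mice, and the same populations were sorted from pooled marrow of mice lacking ING4, a chromatin reader of the inhibitor of growth family that acts with the HBO1 acetyltransferase complex. All cells were lineage-negative, Sca1+, cKit+ and CD48-. Within that gate LT-HSCs were CD34- and CD150+, ST-HSCs were positive for both markers, and MPPs were CD34+ and CD150-. No mouse of these groups was described as treated, the deletion was present in the whole animal, and the WT control mice of the study were of young adult age, while the age of the ING4-/- mice that were pooled is not given in the sources used here. With 1 library per genotype and population, the 3 populations served as the replicates of a genotype, so every p-value below measures the spread between populations of pooled cells and not the spread between mice. Where 3 values of a genotype are listed, they are in the order LT-HSC, ST-HSC, MPP.

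Translation begins when eIF4E binds the mRNA cap and joins the scaffold eIF4G and the helicase eIF4A, while the small ribosomal subunit, carrying eIF3 and the initiator tRNA brought by eIF2, scans to the start codon. The exchange factor eIF2B reloads eIF2 with GTP, and eIF5B then joins the large subunit. During elongation eEF1A delivers aminoacyl-tRNA, the eEF1B subunits exchange its nucleotide and eEF2 moves the ribosome along the mRNA. Hematopoietic stem cells are known for a low rate of protein synthesis compared with the progenitors they give rise to. The mRNAs of elongation factors and of several eIF3 subunits are well-known members of the terminal oligopyrimidine class, which begin with a C followed by a run of C and T letters and are translated under the control of mTORC1.

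Start-site windows from RefSeq on GRCm38.p6 are given for some of the genes whose levels carry the comparison below. The longest run of at least 8 C or T letters that begins with C, where a window holds one, is in capitals. Each window holds 20 bases before the annotated start and 20 from it, read along the gene's strand only, and a window was on hand for 45 of the 59 genes. Windows that hold such a run come from Eef1a1, which encodes the tRNA-delivering factor, and from the eIF3 subunit genes Eif3f, Eif3l and Eif3m.
Eef1a1 (chr9:78481705-78481744, minus strand): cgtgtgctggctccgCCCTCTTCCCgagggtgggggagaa
Eif3f (chr7:108934395-108934434, plus strand): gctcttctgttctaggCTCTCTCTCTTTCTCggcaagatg
Eif3l (chr15:79075203-79075242, plus strand): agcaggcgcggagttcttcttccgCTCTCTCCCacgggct
Eif3m (chr2:105017008-105017047, minus strand): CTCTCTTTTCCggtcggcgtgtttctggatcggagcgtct
Windows without such a run are shown for the exchange factor gene Eef1b2, the translocase gene Eef2 and the large eIF3 subunit genes Eif3a and Eif3c.
Eef1b2 (chr1:63176811-63176850, plus strand): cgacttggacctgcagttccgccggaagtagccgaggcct
Eef2 (chr10:81176611-81176650, plus strand): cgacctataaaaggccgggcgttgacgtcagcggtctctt
Eif3a (chr19:60790674-60790713, minus strand): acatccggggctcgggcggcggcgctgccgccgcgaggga
Eif3c (chr7:126566347-126566386, minus strand): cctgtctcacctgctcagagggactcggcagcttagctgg
Such a run was found in 10 of the 45 translation factor genes with a window (22.2%), in 7 of 26 genes of the initiation complexes (26.9%) and in 1 of 4 elongation factor genes, against 3909 of 27025 genes with a window (14.5%). Among eIF3 genes it was found in 3 of 10. The windows of Eif3b, Eif3g, Eif3j1 and Eif3k, which were called higher, hold no such run and are not shown. Nor does the window of Eif3d, which was not called. In Eif3f the run of 15 letters spanned the annotated start, in Eif3m it ended before it and in Eif3l the longest run lay inside the transcript. The Eif3l window also holds a shorter run of 8 letters, left in lower case, that spans the annotated start. The letters thus describe these windows and no measured 5′ end.

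The libraries differed in depth and in background. WT libraries held 7839326 to 9363442 counts in total, ING4-/- libraries 35596876 to 39192588. Over 1431 olfactory and vomeronasal receptor genes, which blood cells are not known to use, WT libraries held 18.1 to 22.7 counts per kb of exon, whereas ING4-/- libraries held at most 0.0851. Extended over the exons of all annotated genes, that density would amount to 22.6% to 33.4% of the WT counts. The targeted gene Ing4 counted 247, 162 and 247 reads in the WT libraries against 0, 24 and 76 in ING4-/-. Of the sort markers, Cd34 was highest in MPPs in both genotypes (7281 counts in WT and 52899 in ING4-/-) but also present in the CD34- LT-HSCs (1036 and 9500 counts) and Slamf1, which encodes CD150, was highest in LT-HSCs (986 and 3470 counts). Cd48 transcripts were found in both MPP libraries despite the CD48- gate (376 and 4300 counts). Of the marker genes of other blood cells, 5 of 7 for B cells and 4 of 7 for T and NK cells were at 0 in every ING4-/- library, among them Ebf1 and Cd3e, while none was at 0 in every WT library. The 8 erythroid genes summed to 29.5 to 176 CPM (counts scaled to the library size after TMM normalization) in WT and 90.8 to 251 in ING4-/-, and the 10 granulocyte and monocyte genes to 427 to 685 and 1197 to 1431. The 7 B cell genes summed to 94.9 to 115 CPM in WT and 66.6 to 125 in ING4-/-. For the 7 T and NK cell genes the sums were 56.9 to 134 and 26.9 to 267, so both lists overlapped between genotypes. The part of these cells and of the WT background in the differences below was not tested, and in bulk RNA fewer cells of a type cannot be told apart from less RNA per cell.

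Translation factor genes were mostly higher in ING4-/- libraries. Of 58 genes that passed the expression filter, 33 were called higher and 3 lower by edgeR's quasi-likelihood test on counts with Benjamini-Hochberg adjustment, and 22 were not called. A call needed a log2 fold change beyond 1 in either direction and an adjusted p below 0.05. Among all 31001 genes tested, 7.98% were called higher and 56.7% lower. The median log2 fold change was 1.08 for the translation factor genes and -6.85 for all genes tested. Since so many low genes fell, a second fit kept only the 9673 genes that had 10 or more counts in each of the 6 libraries, called the better-covered genes below, of which 8.3% were called higher and 9.68% lower. In it 14 of 54 translation factor genes were called higher and 3 lower. All 14 were also called higher in the first fit, and 12 of them were called higher as well after the background density was subtracted from every count, where 13 of 56 translation factor genes and 5.6% of 19744 genes were called higher. The remaining gene was Eif3j2, at 7.08. Its WT counts lay below the background density, so the subtraction removed them and made that value. With population as a block in the fit, 33 translation factor genes were called higher and 2 lower, against 6.45% and 54.4% of all genes. Those 9673 genes had a median log2 fold change of 0.52 in the first fit, and 44 of 58 translation factor genes lay above that median and 14 below it.

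The direction was shared by the populations for most genes. The log2 ratio of ING4-/- to WT was above 0 in all 3 populations for 44 of 58 genes, against 15% of all genes tested and 44.7% of the 9673 better-covered genes, and below 0 in all 3 for 7 (66% and 17.6%). The CPM of the 3 ING4-/- libraries lay entirely above those of the 3 WT libraries for 42 genes, where 12% of all genes tested and 35.9% of the better-covered genes did so. They lay entirely below for 6 genes, against backgrounds of 62.9% and 13.1%. The 59 genes together took 1.19% to 1.37% of the counts in WT libraries and 2.64% to 2.90% in ING4-/- libraries.

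**Figure D1:**
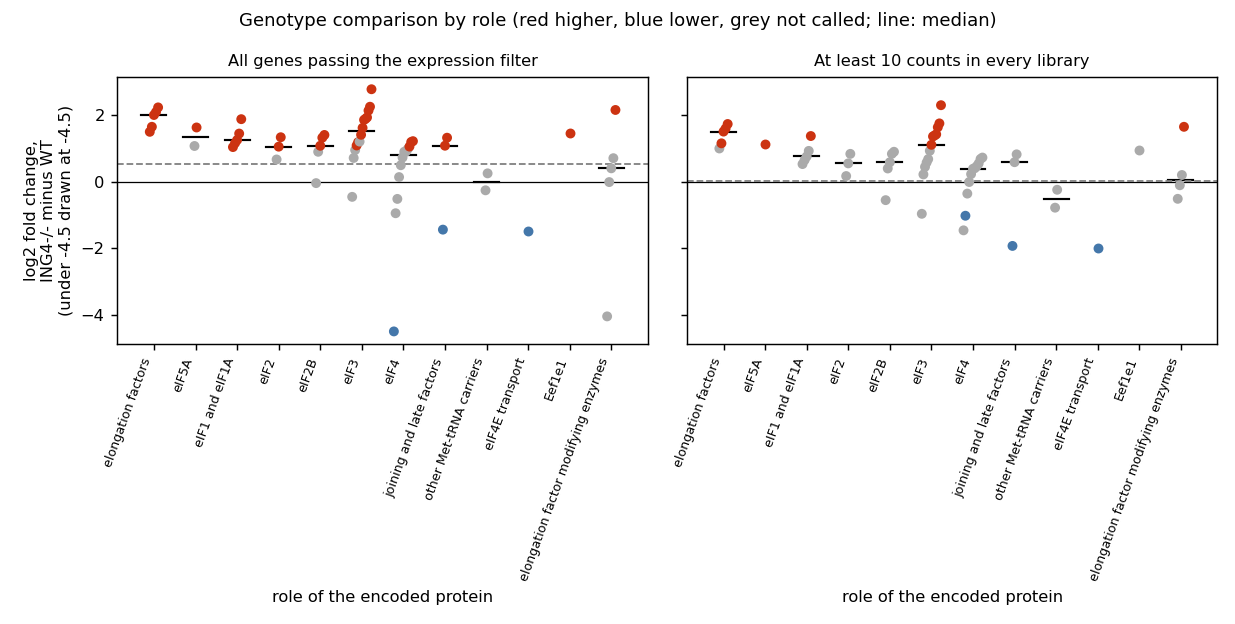
Log2 fold change of each translation factor gene, ING4-/- minus WT (y axis), grouped by the role of the protein (x axis), for all genes passing the expression filter (left) and for better-covered genes, with 10 or more counts in each library (right). Red points were called higher, blue points lower and grey points were not called, short lines are group medians and the dashed line is the median of the 9673 better-covered genes; the elongation factors sit highest, with medians of 2.00 and 1.50, and eIF4 genes reach both sides of 0.

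All 5 elongation factor genes that could be tested rose. Eef1a1 encodes eEF1A, the carrier of aminoacyl-tRNA, and was the most abundant translation factor mRNA in each genotype. Eef1a1 stood at 2385, 2668 and 3257 CPM in WT and at 12792, 10997 and 11642 CPM in ING4-/-. The lowest ING4-/- library was thus far above the highest WT library, and the log2 fold change was 2.09 ± 0.14 (SE, edgeR, adjusted p = 0.000657). Eef1a1 alone took 0.289% to 0.355% of WT counts and 0.920% to 1.12% of ING4-/- counts. Processed copies nearly identical to Eef1a1 are common in the mouse genome, and how shared reads were assigned is not given in the sources used here, so its level carries that uncertainty.

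The 3 genes for the exchange factor eEF1B all rose. Eef1b2, the alpha subunit that exchanges the nucleotide, rose from 111, 126 and 144 CPM in WT to 670, 528 and 587 CPM in ING4-/- (log2 fold change 2.23 ± 0.18). Eef1d, the delta subunit, went from 96.8, 111 and 133 CPM to 406, 304 and 358 CPM (1.65 ± 0.21). In both genes, as in Eef1a1, Eef1g and Eef2, LT-HSCs were lowest among the WT libraries and highest among the ING4-/- libraries. Eef1g, the structural gamma subunit, went from 254, 317 and 348 CPM to 1386, 1107 and 1188 CPM (2.00 ± 0.18). The adjusted p was 0.000657 for all 3 (edgeR), and Eef1a1 and the 3 eEF1B genes were called higher in each of 22 fits that varied the normalization, the test, the filter, the covariates and the libraries left out.

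Eef2, the gene of the translocase, rose from 1027, 1039 and 1102 CPM in WT to 3982, 2282 and 2676 CPM in ING4-/- (log2 fold change 1.50 ± 0.21, edgeR adjusted p = 0.000741). The WT libraries were nearly level, whereas the ING4-/- LT-HSC library stood well above the other two. Eef2 was called in 18 of the 22 fits, and in the fit of the better-covered genes its log2 fold change of 1.00 fell just short of the fold threshold. Eef1a2, the paralog used in muscle and neurons, did not pass the filter: it had 1, 11 and 10 counts in WT, fewer than the background density gives for its length, and 3, 0 and 0 counts in ING4-/-.

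Eif5a encodes eIF5A, the hypusine-bearing factor that helps the ribosome through difficult peptide bonds and is used in both elongation and termination. It was the second most abundant of the group per kb of exon in each genotype, at 768, 963 and 1050 CPM in WT and 2040, 3501 and 3047 CPM in ING4-/-. The groups did not overlap, and the log2 fold change was 1.63 ± 0.23 (edgeR adjusted p = 0.000714). It was called in 19 of 22 fits, and after removal of the trend with gene length its log2 fold change was 0.72. The paralog Eif5a2 was erratic, at 39, 75 and 131 counts in WT against 0, 1352 and 334 counts in ING4-/-. WT counts of Eif5a2 were at or below the background density in 2 of 3 libraries, and it made up at most 0.575% of the pair per kb in any library.

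**Figure D2:**
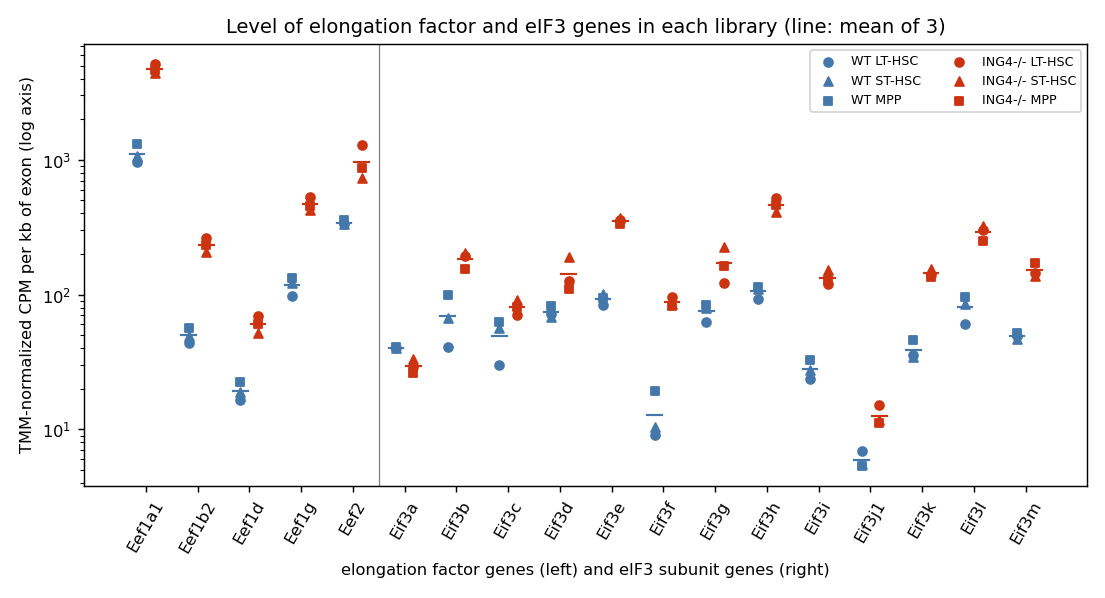
Level of the 5 elongation factor genes tested and of 13 eIF3 subunit genes in each library (y axis, TMM-normalized CPM per kb of exon, log scale), WT in blue and ING4-/- in red, with the symbol giving the population and the short line the mean of 3 libraries. Red points lie above blue points for every gene shown except Eif3a, where they lie below.

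Among the initiation complexes, eIF3 had the most calls. It is the largest initiation factor, a scaffold on the small ribosomal subunit, and 10 of its 14 genes were called higher and none lower, with a median log2 fold change of 1.51. In the fit of the better-covered genes, 7 of 13 were called higher and the median was 1.11. Eif3f, a subunit of the MPN type, had the highest log2 fold change of the 58 genes. It rose from 26.1, 30.3 and 55.2 CPM in WT to 278, 248 and 239 CPM in ING4-/-, a log2 fold change of 2.78 ± 0.33 (edgeR adjusted p = 0.000657). WT MPPs held more Eif3f than the WT stem cells, whereas the ING4-/- populations were close together. Its window above holds the longest pyrimidine run of the eIF3 genes shown.

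Eif3i, a WD-repeat subunit, and Eif3h, the other MPN subunit, came next. Eif3i went from 88.3, 101 and 122 CPM to 446, 565 and 472 CPM (log2 fold change 2.25 ± 0.20). Eif3h went from 117, 138 and 144 CPM to 656, 512 and 583 CPM (2.14 ± 0.18). Neither gene had overlapping groups, and the adjusted p was 0.000657 for both (edgeR). The PCI-domain subunit genes Eif3e, Eif3k, Eif3l and Eif3m followed, with log2 fold changes from 1.61 to 1.93 and the same adjusted p. Eif3f, Eif3i and Eif3k were called in all 22 fits, Eif3e, Eif3h and Eif3l in 21 and Eif3m in 20.

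The remaining eIF3 genes gave mixed results. Eif3b, the RNA-binding scaffold subunit, rose from 136, 224 and 333 CPM to 644, 677 and 516 CPM (log2 fold change 1.41 ± 0.33, edgeR adjusted p = 0.00649), a span that narrowed from LT-HSCs to MPPs, where the log2 ratio was 0.63. Eif3g and Eif3j1 were called higher at 1.18 and 1.09, and Eif3d, at 0.95 ± 0.25, was under the fold threshold. Eif3d stood at 136, 130 and 156 CPM in WT and 240, 363 and 212 CPM in ING4-/-, without overlap, and 32.7% of its exonic bases were shared with a gene on the opposite strand. Eif3c, a core subunit, stood at 105, 197 and 218 CPM in WT and 247, 319 and 286 CPM in ING4-/- and was not called (0.71 ± 0.30, edgeR adjusted p = 0.0709, and 0.0369 with population as a block). Eif3a, the largest subunit and the platform on which eIF3 is built, ran the other way. Its CPM were 208, 207 and 210 in WT and 150, 171 and 135 in ING4-/-, without overlap, but the log2 fold change of -0.46 ± 0.18 was not called (edgeR adjusted p = 0.0529). Eif3a was called lower only after background subtraction, at -1.20, and its sign turned with upper-quartile normalization, which gave 0.14. Eif3j2, a near-identical copy of Eif3j1, had 2, 7 and 2 counts in WT and 24, 39 and 23 in ING4-/-, all WT values below background density.

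The unequal change within eIF3 could be read inside each library, where depth and scaling cancel. The mean counts per kb of Eif3e, Eif3f, Eif3h, Eif3k, Eif3l and Eif3m were 1.59, 1.34 and 1.37 times those of Eif3a and Eif3c in WT. In the ING4-/- libraries the ratios were 5.26, 3.99 and 4.46. Every ING4-/- library was above every WT library, and after background subtraction the WT ratios were still 1.63, 1.36 and 1.38. These subunits were set against each other after their values were seen, so the ratio is a description with no test. The former 6 genes have a median exonic length of 2242 bases and the latter 5176 and 3511 bases, and length itself moved with the fold change, with a Spearman correlation of -0.58 across 54 translation factor genes and -0.51 across all 9673 better-covered genes, all read from the same 6 libraries. With the length trend removed, the log2 fold changes were 2.02 for Eif3f, 0.79 for Eif3e, 0.92 for Eif3h, 1.06 for Eif3k, 0.83 for Eif3l and 0.76 for Eif3m, against -0.76 for Eif3a and 0.07 for Eif3c.

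The eIF4 genes, grouped by name and mostly serving the mRNA cap, had a lower median than eIF3 and calls in both directions. Of 12 tested, 3 were called higher and 1 lower, with a median log2 fold change of 0.81. In the fit of the better-covered genes none of 11 was called higher and 1 was called lower, with a median of 0.38. The 3 called higher all encode cap-binding proteins. Eif4e3 rose from 31.9, 28.9 and 51.8 CPM to 64.1, 82.8 and 115 CPM (log2 fold change 1.22 ± 0.36, edgeR adjusted p = 0.0201). Eif4e, the main cap-binding protein, went from 120, 149 and 159 CPM to 182, 497 and 300 CPM (1.19 ± 0.37, adjusted p = 0.0226), led by ST-HSCs. Eif4e2, a cap-binding protein known for repressing translation, went from 121, 73.5 and 88.3 CPM to 257, 188 and 141 CPM (1.05 ± 0.30, adjusted p = 0.0173). Eif4e was called higher in 9 of 22 fits and the other two in 10.

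The scaffold genes of eIF4G lay at the other end of the complex. Eif4g1 stood at 102, 114 and 129 CPM in WT and 66.7, 83.8 and 90.3 CPM in ING4-/-. The groups did not overlap, yet the gene was not called in the first fit (log2 fold change -0.52 ± 0.23, edgeR adjusted p = 0.0799). It was called lower in the fit of the better-covered genes (-1.02, adjusted p = 0.0159), and its value was 0.07 with upper-quartile normalization. Eif4g3, its paralog, went from 58.7, 50.5 and 65.5 CPM to 14.2, 24.4 and 51.7 CPM, with the deficit greatest in LT-HSCs (log2 ratio -2.03) and least in MPPs (-0.34), and was not called (-0.95 ± 0.50, adjusted p = 0.137). Eif4g2, which encodes the cap-independent relative DAP5, pointed upward, at 0.72 ± 0.20, under the fold threshold.

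The oocyte cap-binding gene Eif4e1b was called lower, with 7, 5 and 6 counts in WT and 0 in every ING4-/- library. All WT counts were under the background density for its length, 40.8 to 51.3 counts. Taking 3 counts per library as the limit that a count of 0 allows, it was at least 6.68-fold lower (edgeR adjusted p = 0.00120). The helicase genes Eif4a1 and Eif4a3 and the cofactor gene Eif4h had log2 fold changes from 0.90 to 0.98. Their adjusted p was under the threshold, but their folds did not reach it. The cofactor gene Eif4b stood at 0.49 ± 0.21.

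The genes of the ternary complex and its exchange factor had intermediate medians in the first fit. Eif2s1, which encodes eIF2 alpha, the subunit phosphorylated in the integrated stress response, went from 110, 129 and 167 CPM to 257, 507 and 257 CPM (log2 fold change 1.33 ± 0.33, edgeR adjusted p = 0.00869), with ST-HSCs highest in ING4-/-. Eif2s2, eIF2 beta, went from 42.1, 76.7 and 77.1 CPM to 101, 156 and 149 CPM (1.05 ± 0.32, adjusted p = 0.0223). Both were called higher, and neither was called in the fit of the better-covered genes. The X-linked Eif2s3x, eIF2 gamma, stood at 40.7, 44.8 and 54.7 CPM in WT and 76.6, 80.3 and 65.6 CPM in ING4-/- and was not called (0.67 ± 0.26, adjusted p = 0.0583). Its Y-linked homolog Eif2s3y, left out of the group, had 63 to 75 counts in WT libraries and 292, 20 and 470 counts in ING4-/- libraries, and the part of the sex of the pooled mice in the value of Eif2s3x was not tested.

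Of the 5 eIF2B subunit genes, 3 were called higher and none lower, with a median log2 fold change of 1.08. Eif2b1, the alpha subunit, went from 38.8, 49.2 and 47.9 CPM to 126, 71.8 and 161 CPM (1.40 ± 0.34, edgeR adjusted p = 0.00775). Eif2b5, the catalytic epsilon subunit, went from 36.9, 59.6 and 84.0 CPM to 146, 185 and 120 CPM (1.32 ± 0.35, adjusted p = 0.0119). Eif2b2, the beta subunit, went from 38.2, 63.1 and 67.1 CPM to 125, 126 and 105 CPM (1.08 ± 0.28, adjusted p = 0.0112). All 3 lay without overlap above WT. Eif2b4, the delta subunit, went from 55.5, 39.9 and 54.6 CPM to 108, 106 and 64.9 CPM and stayed under the fold threshold (0.90 ± 0.30). Eif2b3, the gamma subunit, showed overlapping groups, at 66.0, 72.1 and 67.3 CPM in WT and 62.2, 72.7 and 64.2 CPM in ING4-/- (-0.05 ± 0.23). None of the 5 was called in the fit of the better-covered genes, where the median was 0.58. Nor was any called after background subtraction or with the length trend removed, where the medians were 0.37 and 0.05.

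The genes of eIF1 and eIF1A, grouped by name, rose together in the first fit. All 5 were called higher, and Eif1b alone also in the fit of the better-covered genes. After background subtraction, too, only Eif1b was called, with Eif1 at 0.23 and the median of the 5 at 0.58. With the length trend removed only Eif1ax was called, Eif1 was at 0.05 and the median was 0.39. Eif1, which guards start-codon choice, was nearly even within each genotype, at 439, 424 and 421 CPM in WT and 887, 885 and 865 CPM in ING4-/- (log2 fold change 1.04 ± 0.12, edgeR adjusted p = 0.000657). Its close relative Eif1b went from 35.8, 41.1 and 33.8 CPM to 189, 79.1 and 139 CPM (1.88 ± 0.35, adjusted p = 0.00222), with ST-HSCs lagging, and 12.7% of its exonic bases are shared with a gene on the opposite strand. Eif1a, Eif1ax and Eif1ad had log2 fold changes from 1.16 to 1.44.

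At the last steps of initiation the genes parted. Eif5, the GTPase activator of eIF2, and Eif6, which keeps the large subunit from joining too early, were called higher at 1.08 ± 0.21 and 1.32 ± 0.40. Each was called in 11 of 22 fits, and neither in the fit of the better-covered genes (0.58 and 0.82). Eif5b, the GTPase that joins the subunits, was lower, from 49.8, 76.4 and 83.2 CPM in WT to 37.0, 9.96 and 30.1 CPM in ING4-/-, with the ST-HSC library lowest. Its log2 fold change was -1.44 ± 0.53 (edgeR adjusted p = 0.0442, and 0.0649 with population as a block, which ended the call). Eif4enif1, which encodes the eIF4E transporter that takes eIF4E into the nucleus and into granules of silent mRNA, was lower in all 3 populations. It went from 55.9, 58.1 and 69.7 CPM to 24.6, 15.0 and 26.2 CPM (-1.48 ± 0.35, adjusted p = 0.00651) and was called lower in 20 of 22 fits, against 11 of 22 for Eif5b. Of the exonic bases of Eif5b, 16.8% are shared with a gene on the opposite strand. The alternative carriers of initiator tRNA, Eif2a and Eif2d, were not called, at -0.26 ± 0.41 and 0.25 ± 0.34.

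Enzymes that modify elongation factors showed no common direction. Eef1akmt1, a lysine methyltransferase of eEF1A, rose from 20.6, 22.8 and 23.4 CPM to 96.3, 131 and 70.3 CPM (log2 fold change 2.15 ± 0.32, edgeR adjusted p = 0.000846) and was called in 21 of 22 fits. Eef2k, the kinase that halts elongation by phosphorylating eEF2, stood at 207, 155 and 275 CPM in WT and 106, 213 and 312 CPM in ING4-/-, at -0.01 ± 0.41. Eef2kmt and Eef1akmt2 were not called, at 0.70 ± 0.27 and 0.40 ± 0.38. Eef1akmt3 had 37, 36 and 19 counts in WT, all below background density, and 0, 0 and 19 counts in ING4-/-. Eef1e1, which encodes a scaffold protein of the aminoacyl-tRNA synthetase complex, was called higher, at 1.47 ± 0.33, and in 18 of 22 fits. It was not called in the fit of the better-covered genes (0.96), after background subtraction (0.78) or with the length trend removed (0.20).

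**Figure D3:**
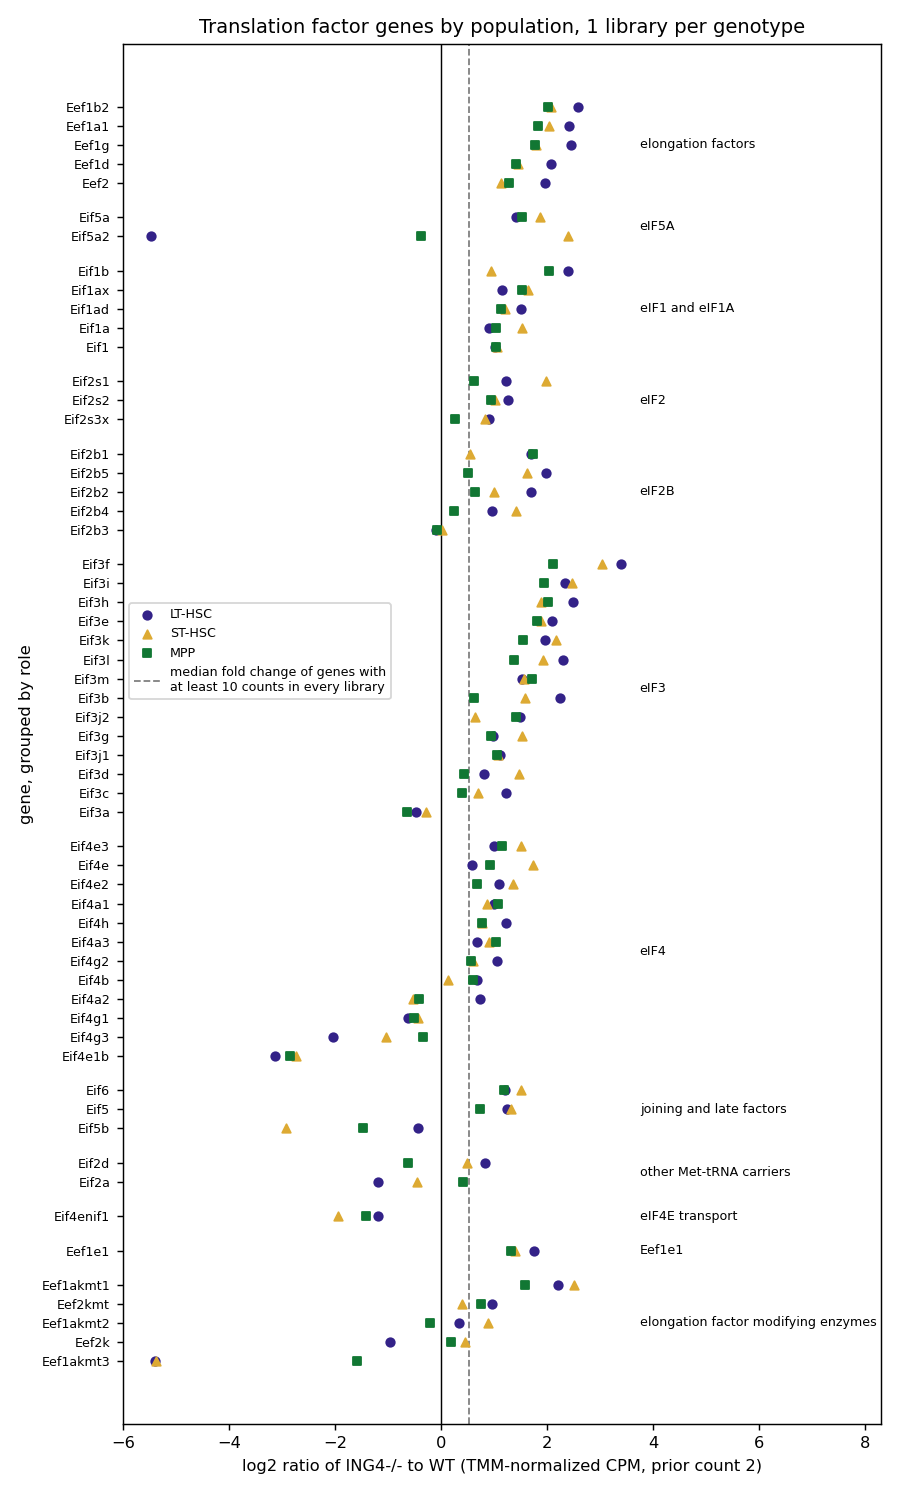
Log2 ratio of ING4-/- to WT in LT-HSCs, ST-HSCs and MPPs (x axis, TMM-normalized CPM with a prior count of 2) for each of the 58 genes tested, grouped by role (y axis), with the dashed line at the median fold change of the better-covered genes, 0.52. All 3 points of each elongation factor gene lie above 1, while Eif5a2, Eif5b and Eef1akmt3 spread widely.

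Elongation factors and initiation complexes were then set side by side. The median log2 fold change was 2.00 for the 5 elongation factors tested and 1.06 for the 34 genes of eIF2, eIF2B, eIF3 and eIF4, a difference of 0.94. All 5 elongation factors were called higher, as were 18 of the 34 initiation genes, with 1 lower. In the fit of the better-covered genes the counts were 4 of 5 and 7 of 32, and the medians 1.50 and 0.56. By population, in the order given above, the elongation factor medians were 2.42, 1.80 and 1.77 and those of the initiation complexes 1.11, 1.05 and 0.72. Without the LT-HSC libraries the difference was 0.77 over the same 5 elongation factors, and 0.60 when Eef1a2, which passed the count filter there, was included. With the length trend removed it was 0.64. Median exonic length was 2600 bases for the elongation factors and 3376 bases for the initiation genes. The 2 groups were chosen by role with the direction of earlier results known, so no test of the difference was made.

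Summed counts per kb gave the same comparison without scaling between libraries. Elongation factors summed to 1.31, 1.25 and 1.30 times the initiation complexes in WT, and to 2.27, 1.69 and 2.01 times in ING4-/-. Eef1a1 held most of the elongation sum. Without it the ratios were 0.443, 0.411 and 0.395 in WT and 0.669, 0.412 and 0.516 in ING4-/-, and the ST-HSC values of the genotypes were almost equal.

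Paralogs of the same factor did not always keep their proportions. Eif4a2, the helicase linked to mRNA repression by microRNAs, made up 43.6%, 34.2% and 42.7% of the Eif4a1 and Eif4a2 pair per kb in WT. In ING4-/- its share was 39.2%, 16.3% and 21.1%, lower in each population, though the ING4-/- LT-HSC library lay among the WT values. Eif1b made up 13.2%, 15.3% and 13.0% of the Eif1 and Eif1b pair in WT and 28.5%, 14.3% and 23.0% in ING4-/-, so ST-HSCs did not share the shift. Eif1ax made up 25.5% to 34.7% of its pair with Eif1a in WT and 32.4% to 36.5% in ING4-/-, with overlap, though its share was higher in ING4-/- within each population. The pairs are alike in sequence, and reads that fit both could be split by the counting.

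**Figure D4:**
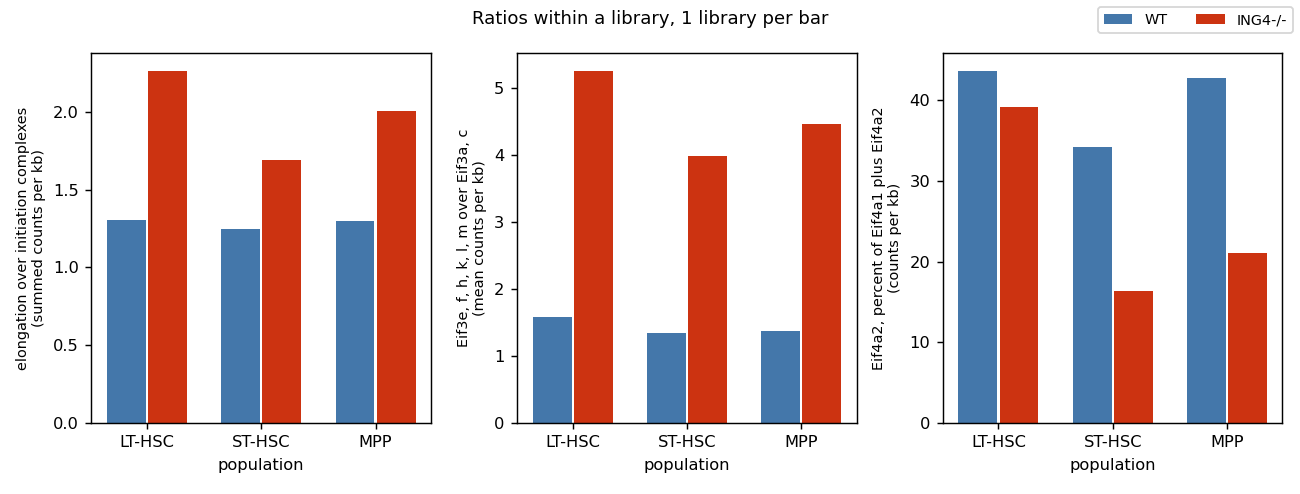
Ratios read inside each library, WT in blue and ING4-/- in red, by population (x axis): summed counts per kb of the elongation factors over the initiation complexes (left), mean counts per kb of Eif3e, f, h, k, l and m over Eif3a and c (middle), and the percent of Eif4a2 in the Eif4a1 and Eif4a2 pair per kb (right). Each bar is 1 library, and the ING4-/- bar exceeds the WT bar in every population in the left and middle panels and is below it in the right panel.

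Between MPPs and LT-HSCs, fitted over both genotypes with genotype as a term, no translation factor gene was called by edgeR, where 0% of 31001 genes were. At an unadjusted p under 0.05 there were 4 such genes of 58 and 561 of all 31001 genes, and in the fit of the better-covered genes 4 of 54 and 702 of 9673. In the first fit the share of the translation factor genes was above that of all genes, a set with many low genes. In the second it was near that of all genes. The 4 of the first fit, named after their values were seen, were Eif6, Eif5a, Eif1ad and Eif2s2. All were higher in MPPs, with log2 differences of 1.08, 0.51, 0.74 and 0.71. In the fit of the better-covered genes 0.0207% of genes were called and none was a translation factor gene.

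Genes that act on these factors were followed in lists written by role. Of 53 genes, 52 were tested, and 13 were called higher and 1 lower, where 7.98% of all genes were called higher and 56.7% lower, with a median log2 fold change of 0.69 for the list. In the fit of the better-covered genes 3 were called higher and 3 lower of 49, with a median of 0.20, against 8.3% higher and 9.68% lower among all genes of that fit, which is near the shares in the list. The gene called lower was Ppp1r15a (GADD34), which directs a phosphatase to eIF2 alpha, with a log2 fold change of -1.47 ± 0.44 (edgeR adjusted p = 0.0204), while none of the 4 eIF2 kinase genes was called. Among cap and poly(A) partners, 3 of 9 were higher. Pdcd4, an inhibitor of eIF4A, had 380, 647 and 660 counts in WT and 4918, 7849 and 5862 in the deeper ING4-/- libraries (1.73 ± 0.31, adjusted p = 0.00170). Paip2, an inhibitor of poly(A)-binding protein, and Pabpc1, the poly(A)-binding protein itself, were called at 1.51 ± 0.21 and 1.59 ± 0.35. In the fit of the better-covered genes Pdcd4 and Paip2 stayed called, but Pabpc1 did not (1.08, edgeR adjusted p = 0.0511). Larp1, of the same list, was called lower there (-1.53).

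The eIF4E inhibitor gene Eif4ebp1 was called higher, at 1.18 ± 0.18 (edgeR adjusted p = 0.000927), Eif4ebp2 was not, and Eif4ebp3 had no count in any library. Eif4ebp1 was not called in the fit of the better-covered genes (0.67) or after background subtraction (0.43). Of 9 mTORC1 genes 1 was higher, Akt1s1, which encodes the inhibitory subunit PRAS40, and the list's median was 0.08. Of 6 termination and recycling genes 3 were higher, namely Gspt1, Abce1 and Mcts1. Of 11 genes for hypusine, diphthamide and selenocysteine 3 were higher, namely Dohh, the second enzyme of hypusine synthesis on eIF5A, and the diphthamide genes Dph3 and Dnajc24, which serve the modified histidine of eEF2. Of 9 mitochondrial translation factor genes 2 were higher, Tsfm and Mtrf1, with a list median of 0.51, which was close to the median of the better-covered genes, 0.52. In the first fit 7.98% of all genes were called higher. In the fit of the better-covered genes the share was 8.3%, and none of the 5 termination, 8 mTORC1 and 9 mitochondrial genes tested was. There 1 mitochondrial gene was called lower, and 1 of 11 hypusine, diphthamide and selenocysteine genes was called higher.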

How the data were processed

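The deposited counts of 6 libraries were used, whole numbers of reads per gene with no normalization, which the authors obtained from a sequencing company. The submitters' processing notes name the mouse build mm10. The aligner, the counting program and the strand setting are not given in the sources used here. Symbols, types and exonic lengths came from GENCODE for GRCm38, which held 49056 of 49315 identifiers. Genes and lists were chosen with earlier results of these data known. Genes with per-library values were named by rule: the elongation factors, eIF2, eIF2B and eIF5A genes, the 3 highest and 3 lowest of eIF3 and of eIF4, those called lower and those not tested. Per-library values of Eif3b, Eif3j2, Eif1, Eif1b, Eef1akmt1, Eef2k and Eef1akmt3 were added after they were seen.

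From the counts, ING4-/- was compared with WT in edgeR 4.0.16 (R 4.3.3) with TMM factors, the filterByExpr filter (grouped by genotype) and its quasi-likelihood test, with Benjamini-Hochberg adjustment over all genes tested. Calls needed an adjusted p below 0.05 with a log2 fold change beyond 1 in either direction. A standard error is the size of a log2 fold change over the root of its F statistic. Alternatives were DESeq2 1.42.0, other size factors, other filters, background subtraction, thinning, length and GC trends and leaving out libraries. Some of the fits were also run on simulated counts with known changes, and the outcome is not given here. The value of 1 marker gene is not reported here. Libraries of the same population deviated together (r of 0.143, 0.110 and 0.121 for LT-HSC, ST-HSC and MPP pairs across 9673 genes), so the population pairs the libraries and was a block in 1 alternative. Within a genotype no library repeated another, the smallest chi-square per degree of freedom being 15.4. A count of 0 allows up to 3 counts, or 0.294 to 0.323 TMM-normalized CPM in WT and 0.0884 to 0.0959 in ING4-/-. Such limits cover counting error only, since reads carried no molecular identifiers. Tables and figures were made in Python 3.11.15 with pandas 2.3.3, numpy 2.4.6 and matplotlib 3.10.9.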

Additional observations from a re-analysis of the deposited data

Results flagged for a closer look

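The log2 ratio of ING4-/- to WT had opposite signs in different populations for 6 translation factor genes in which the populations lay more than 1 apart. With 1 library per genotype and population the difference between populations was not tested. From the highest to the lowest population the log2 ratio spanned 7.85 for Eif5a2, where ST-HSCs were at 2.39 and LT-HSCs, with no count in ING4-/-, at -5.46. It spanned 1.61 for Eif2a, from 0.42 in MPPs to -1.19 in LT-HSCs, and 1.46 for Eif2d, from 0.83 in LT-HSCs to -0.62 in MPPs. Eef2k spanned 1.41, from 0.46 in ST-HSCs to -0.96 in LT-HSCs. Eif4a2 spanned 1.26, from 0.73 in LT-HSCs to -0.53 in ST-HSCs, and Eef1akmt2 spanned 1.08, from 0.88 in ST-HSCs to -0.20 in MPPs. None of the 6 genes was called between genotypes in any of the fits made.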

How the results depend on the processing

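The direction of both role groups held in all fits: the median log2 fold change lay between 0.50 and 1.66 for the initiation complexes and between 1.22 and 2.60 for the elongation factors. Against 33 genes called higher, there were 44 with upper-quartile normalization, 40 with no fold threshold, 19 with DESeq2 size factors, 20 with the DESeq2 test, 14 with at least 10 counts in every library, 13 after background subtraction, 10 and 17 with the length and GC trends removed, and 19 among protein-coding genes only. Leaving out a library or population gave 20 to 35, with 20 without both ST-HSC libraries. Of all genes, 7.98% were called higher in the first fit, 8.3% with the count minimum, 5.6% after background subtraction and 6.45% with population as a block. All better-covered genes moved with the fit. Their median log2 fold change was 0.52 at first, 1.12 with upper-quartile normalization, 0.17 with DESeq2 size factors, 0.02 with the count minimum and 0.25 after background subtraction. Against 3 called lower, there were 5 with DESeq2 size factors, 1 with upper-quartile normalization, 6 with the DESeq2 test, 1 with the length trend removed, 1 without WT ST-HSCs, 1 without WT MPPs and 0 without both ST-HSC libraries, so leaving out gave 0 to 3. For the initiation complexes the median of 1.06 became 0.71 with DESeq2 size factors, 1.66 with upper-quartile normalization, 0.73 with DESeq2, 0.56 with the count minimum, 0.50 after background subtraction, 0.85 after thinning, 0.59 and 0.64 with the length and GC trends removed and 0.72 among protein-coding genes. For the elongation factors 2.00 became 2.60 with upper-quartile normalization, 1.50 with DESeq2 (1.67 over the same 5 genes, since Eef1a2 was also tested there), 1.50 with the count minimum, 1.22 after background subtraction, and 1.23 and 1.42 with the length and GC trends removed. Their difference of 0.94 became 0.64 with the length trend removed and ranged from 0.60 without both LT-HSC libraries (0.77 over the same 5 elongation factors, without Eef1a2) to 1.13 without both ST-HSC libraries. Within populations, upper-quartile normalization and background subtraction gave initiation medians of 1.71 and 0.53 in LT-HSCs, 1.67 and 0.60 in ST-HSCs and 1.28 and 0.14 in MPPs, and elongation medians of 3.02 and 1.65, 2.42 and 0.88, and 2.33 and 1.07. With population as the replicate block 33 genes were called higher and 2 lower, and Eif5b was the only translation factor gene whose call changed. The cause of these shifts was not tested. Over single genes and alternatives, 950 values kept their side of the threshold, 194 fell short of it and 46 newly passed it.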
